A study of Saccharomyces cerevisiae with 32 samples.

Results

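The 26S proteasome of budding yeast (Saccharomyces cerevisiae) is built from 33 different subunits, and their 33 genes were followed here through ribosome profiling and mRNA sequencing of 8 strains. They were taken by open reading frame (ORF) name: 14 subunits of the 20S core, the 6 RPT ATPases, 4 other subunits of the base and 9 of the lid, out of 5446 genes in the 6 deposited tables. All 33 were present and passed the level minimum of 50 in each of the 9 comparisons made.

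The proteasome destroys proteins that carry ubiquitin chains. Its 20S core is a barrel of stacked alpha and beta rings with the cutting sites inside, and the regulatory particle on its ends has a base, whose RPT ATPases unfold and thread the substrate, and a lid, which removes the ubiquitin. Subunits are used in fixed proportion, and in yeast the transcription activator Rpn4, itself a short-lived substrate of the proteasome, drives many of their genes. Ded1 and its paralogue Dbp1 are DEAD-box RNA helicases that help ribosomes load onto mRNAs and scan to the start codon.

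The strains came from 3 experiments. At 15 °C, ded1-cs cells carrying DBP1 in high copy (hcDBP1) and ded1-cs cells, which carry a cold-sensitive DED1 allele, were set against DED1-CS wild type. At 37 °C, ded1-ts hcDBP1 and ded1-ts cells, with a heat-sensitive allele, were set against DED1-TS wild type. In another 37 °C experiment, ded1-ts dbp1-deletion and dbp1-deletion cells were set against the wild type (WT) of their tables. Cultures grew in SC medium with plasmid selection where needed to an OD600 of about 0.7, were shifted in temperature, and received cycloheximide, which stalls ribosomes, at 100 µg/ml for 2 min. DBP1 served as the check of the strains: its log2 mRNA change was 5.85 and 6.89 in ded1-cs hcDBP1 and ded1-ts hcDBP1 cells over their wild types, and -9.45 and -6.21 in ded1-ts dbp1-deletion and dbp1-deletion cells over WT. The DED1 message differed between the strains too. Its log2 mRNA change was 0.97 in ded1-cs hcDBP1 and 1.37 in ded1-cs cells over DED1-CS, and -1.33 in ded1-ts hcDBP1 and -1.17 in ded1-ts cells over DED1-TS. It was -0.95 in ded1-ts dbp1-deletion and -2.63 in dbp1-deletion cells over WT.

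There were 32 libraries, 2 for each strain and assay, but each table holds a single log2 level per strain and assay and the log2 changes made from them. The spread between libraries and their depth are therefore unknown, no test could be run, and no difference below is shown to exceed replicate error. Translational efficiency (TE) compares ribosomes with message: its change is what remains of the footprint change once the mRNA change is taken off, in log2 units. The libraries are of whole cultures, and levels are relative within a column, so fewer cells and less RNA per cell cannot be told apart. A gene is called past 2-fold at a log2 change of at least 1 in size, and each count of subunit genes stands beside the share of all analysed genes past the same limit.

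At 15 °C, ded1-cs cells had more ribosomes per mRNA on most proteasome subunit genes than DED1-CS cells, with slightly less of the mRNA. The log2 TE change of the 33 genes had a median of 0.52, against 0.10 over all 5078 analysed genes, and 27 of the 33 lay above 0. In TE, 11 of the 33 genes, named below, were past 2-fold higher (16.4% of all genes were), and 0 were past 2-fold lower (21.9% of all genes). The regulatory particle held 7 of its 19 genes past 2-fold and a median of 0.73, and the 20S core held 4 of 14 and a median of 0.44. These signs depend on how the assays are scaled: with the summed level of each column made equal, the median TE change of the 33 genes was -0.08 in ded1-cs cells, 15 of 33 lay above 0 and none was past 2-fold higher.

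In the alpha rings of the core, which gate the barrel, the TE change in ded1-cs cells was spread over both sides of 0. The highest were PRE8 (YML092C, alpha2) at 1.16 and PRE6 (YOL038W, alpha4) at 1.12. PUP2 (YGR253C, alpha5) had 0.52, PRE10 (YOR362C, alpha7) 0.50, PRE5 (YMR314W, alpha6) 0.38 and PRE9 (YGR135W, alpha3) 0.16. SCL1 (YGL011C, alpha1) stood alone at -0.93, the lowest of the 33 genes. Its footprint level was 2048 in ded1-cs cells and 4012 in DED1-CS cells, and its mRNA level 2896 in ded1-cs cells and 3104 in DED1-CS cells. The deposited log2 footprint change was -1.02, although the rounded levels lie slightly less than 2-fold apart. By the deposited changes SCL1 was the only subunit gene past 2-fold lower in footprints, where 20.1% of all genes were.

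The beta rings carry the peptide-cutting sites, on beta1, beta2 and beta5. PRE3 (YJL001W, beta1) had the highest TE change of the core, 1.26. Its footprint level was 5793 in ded1-cs cells and 2702 in DED1-CS cells, with an mRNA level of 2048 in ded1-cs cells and 2195 in DED1-CS cells. PRE1 (YER012W, beta4) followed at 1.03 and PRE2 (YPR103W, beta5) at 0.92. PRE7 (YBL041W, beta6) had 0.28, PRE4 (YFR050C, beta7) 0.24 and PUP1 (YOR157C, beta2) 0.15, all near the median of all genes. PUP3 (YER094C, beta3) was the only beta gene below 0, at -0.25.

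The ATPases of the base form the ring that pulls substrates into the core. As deposited, 3 of the 6 were past 2-fold higher in TE in ded1-cs cells (16.4% of all genes), and none was with equal column totals. RPT2 (YDL007W), whose product helps open the core's gate, had a change of 1.51, RPT4 (YOR259C) 1.27 and RPT1 (YKL145W) 1.18. RPT2 joined the largest mRNA difference among the 33 genes, 3104 in ded1-cs cells and 4705 in DED1-CS cells, to a footprint level of 8780 in ded1-cs cells and 4705 in DED1-CS cells. RPT6 (YGL048C) had 0.94, RPT5 (YOR117W) 0.29 and RPT3 (YDR394W) -0.10. The ring thus held both the second highest TE change of the 33 genes and a value below 0.

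The other base subunits are the scaffolds RPN1 (YHR027C) and RPN2 (YIL075C), with TE changes of 0.53 and 0.37 in ded1-cs cells, and the ubiquitin receptors RPN10 (YHR200W) and RPN13 (YLR421C), with 0.52 and 1.34. In the lid, SEM1 (YDR363W-A), the smallest subunit, had the highest TE change of all, 1.53. Its footprint level was 2353 in ded1-cs cells and 936 in DED1-CS cells, and its mRNA level 478 in ded1-cs cells and 588 in DED1-CS cells. RPN11 (YFR004W), the deubiquitinating enzyme, had 1.30, and RPN12 (YFR052W), the last subunit to join the lid, 1.08. Of the other lid subunits above 0, RPN9 (YDR427W) had 0.89, RPN5 (YDL147W) 0.73 and RPN7 (YPR108W) 0.38. The lid also held 3 of the 6 genes below 0: RPN6 (YDL097C) at -0.18, RPN3 (YER021W) at -0.34 and RPN8 (YOR261C), the partner of RPN11, at -0.42.

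Footprints were spread more widely than mRNA. In ded1-cs cells the log2 footprint change over DED1-CS ran between -1.02 (SCL1) and 1.29 (SEM1), with a median of 0.33 that became -0.19 with equal column totals, and 3 genes were past 2-fold higher: SEM1, PRE3 at 1.13 and RPT4 at 1.03 (14% of all genes). The mRNA changes lay between -0.57 (RPT2) and 0.05 (PUP2), with a median of -0.23 against -0.01 over all genes. Of the 33 mRNAs, 32 lay below 0, as 51.3% of all genes did, and 0 were past 2-fold (2.11% of all genes). Across the 33 genes, footprint and mRNA changes ran against each other (Pearson's r = -0.46, Spearman's rho = -0.47), a description over genes that share the same libraries.

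**Figure D1:**
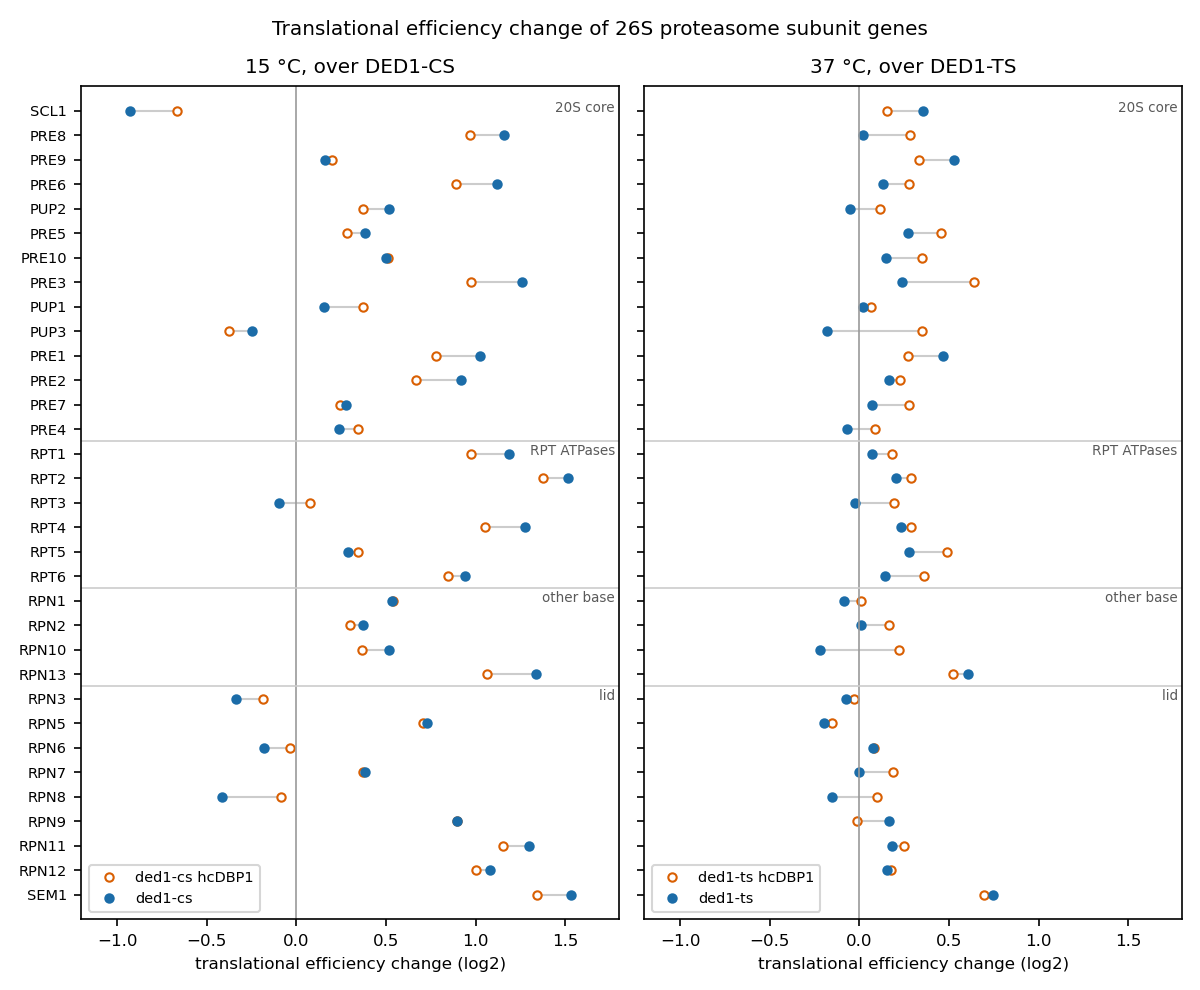
Log2 change in translational efficiency of each of the 33 subunit genes (rows, grouped by subcomplex) over wild type, at 15 °C (left) and 37 °C (right). Open points are hcDBP1 cells and filled points the ded1 mutant alone. Each point is a single deposited value, and how the 2 libraries per strain and assay were combined is not given. At 15 °C the genes spread between -0.93 (SCL1) and 1.53 (SEM1) in ded1-cs cells, and at 37 °C between -0.22 (RPN10) and 0.74 (SEM1) in ded1-ts cells.

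**Figure D2:**
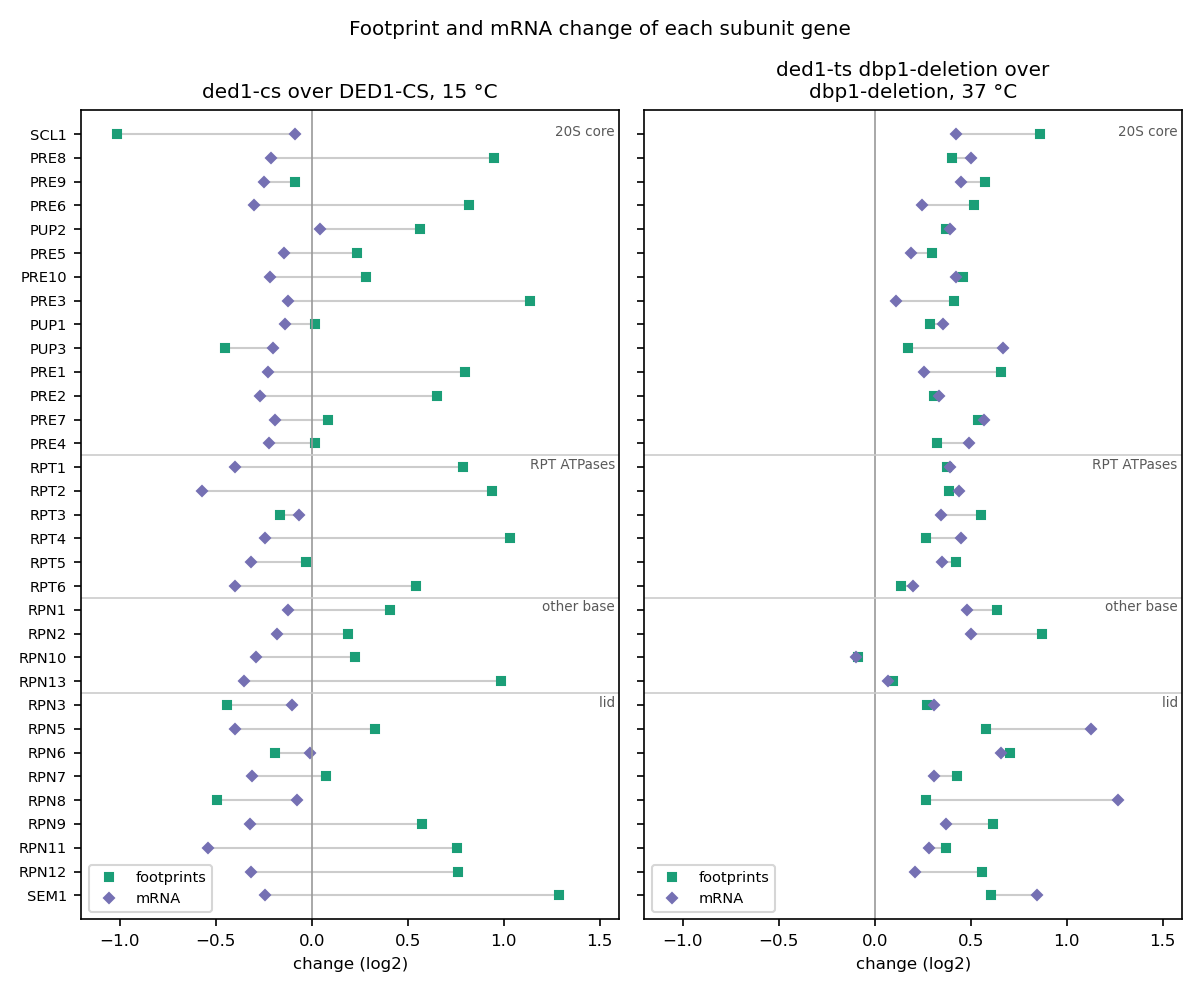
Log2 footprint change (squares) and log2 mRNA change (diamonds) of each subunit gene in ded1-cs over DED1-CS cells at 15 °C (left) and in ded1-ts dbp1-deletion over dbp1-deletion cells at 37 °C (right), single values with no replicate error. On the left the mRNA points lie left of 0 for all but PUP2 while footprints are spread widely; on the right both lie right of 0 for all genes but RPN10.

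High-copy DBP1 in ded1-cs cells left the picture at 15 °C much as it was, with narrower extremes. Over DED1-CS, ded1-cs hcDBP1 cells had a median TE change of 0.51 in the 33 genes, against 0.13 over all genes. Of the 33 genes, 5 were past 2-fold higher (9.22% of all genes): RPT2 at 1.38, SEM1 at 1.34, RPN11 at 1.15, RPN13 at 1.06 and RPT4 at 1.05. All 5 belong to the regulatory particle, whose lowest gene was RPN3 at -0.19, while the core ranged between -0.66 (SCL1) and 0.98 (PRE3). None was past 2-fold lower in TE (13.1% of all genes), and none was past 2-fold in footprints, either way (16.8%). With equal column totals the median TE change was 0.09 and no gene was past 2-fold higher. The mRNA changes were below 0 in 33 of 33 genes, with a median of -0.29, against 0.001 over all genes. RPT2 was lowest at -0.82, and no subunit gene was past 2-fold (1.44% of all genes). The mRNA median was -0.28 with equal column totals, and 32 of 33 genes lay below 0.

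The step that hcDBP1 added is the difference of the 2 deposited changes, in which DED1-CS cancels. In ded1-cs hcDBP1 over ded1-cs cells it had a median of -0.08 in TE, against 0.05 over all genes, and no subunit gene passed 2-fold in TE (2.36% of all genes), footprints (3.90%) or mRNA (0.355%). With equal column totals that TE median was 0.10, above 0 instead of below. The core ran between -0.28 (PRE3) and 0.27 (SCL1), and the regulatory particle between -0.27 (RPN13) and 0.33 (RPN8). PRE3 and RPN13 had been among the highest genes in ded1-cs cells, and SCL1 and RPN8 the lowest of the core and of the regulatory particle. The ded1-cs value enters both sides of that observation, so it carries no weight as a relation.

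At 37 °C the subunit genes of ded1-ts cells lay close to those of DED1-TS cells. The log2 TE change had a median of 0.13, against 0.08 over 5222 genes, and no subunit gene was past 2-fold in TE (9.25% of all genes), footprints (13.3%) or mRNA (7.35%). In the core PRE9 was highest at 0.53 and PUP3 lowest at -0.18, and in the regulatory particle SEM1 was highest at 0.74 and RPN10 lowest at -0.22. The footprint level of SEM1 was 2436 in ded1-ts cells and 1405 in DED1-TS cells, and its mRNA level 1024 in ded1-ts cells and 955 in DED1-TS cells. The mRNA changes ran between -0.50 (RPN13) and 0.63 (RPN5) around a median of 0.01, against -0.002 over all genes. The footprint changes had a median of 0.13, against 0.03 over all genes, with 26 of 33 subunit genes above 0. With equal column totals the mRNA median was 0.21 and 29 of 33 genes lay above 0, and the footprint median was 0.26 with 32 of 33 above 0. The SD of the TE change over the 33 genes was 0.23 in ded1-ts cells, where all genes had 0.62. In ded1-cs cells at 15 °C it was 0.62, where all genes had 1.10.

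The ded1-ts and ded1-cs comparisons share no library. Over the 33 genes their TE changes had a Pearson's r of 0.39 and a Spearman's rho of 0.44, as a description. Both were above 0 for 21 genes and both below 0 for 4, counts that were not made over all genes. The signs depend on scaling: with equal column totals 18 of the 33 genes lay above 0 in ded1-ts cells and 15 in ded1-cs cells. SEM1 was the highest gene in both mutants and RPN13 the second highest in ded1-ts cells. SCL1 lay on opposite sides, at 0.36 in ded1-ts cells and -0.93 in ded1-cs cells. In ded1-ts cells the TE change was lower for longer genes (r = -0.53, rho = -0.39 with log2 gene length over the 33), while in ded1-cs cells these values were -0.20 and -0.09. SEM1 and RPN13, the highest in ded1-ts cells, are also the shortest genes, at 270 and 471 bp. The relation was not computed over all genes, so it is not shown to be particular to the subunit genes.

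In ded1-ts hcDBP1 over DED1-TS cells the median TE change was 0.23, against 0.10 over all genes, and 30 of 33 genes lay above 0, although 17 did with equal column totals. No subunit gene was past 2-fold in TE (3.86% of all genes), footprints (2.92%) or mRNA (2.28%). The core lay between 0.07 (PUP1) and 0.64 (PRE3), and the regulatory particle between -0.15 (RPN5) and 0.70 (SEM1). The step added by hcDBP1, in ded1-ts hcDBP1 over ded1-ts cells, had a median of 0.11 in TE, against 0.01 over all genes, and with equal column totals it turned to -0.04. No gene passed 2-fold in TE (1.59%), footprints (2.90%) or mRNA (1.02%). The step ran between -0.20 (SCL1) and 0.53 (PUP3) in the core and between -0.18 (RPN9) and 0.44 (RPN10) in the regulatory particle. PUP3 and RPN10 were the lowest genes of their subcomplexes in ded1-ts cells, and the shared ded1-ts value enters both figures. The mRNA part of the step had a median of -0.13, against -0.005 over all genes, with 27 of 33 subunit genes below 0.

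**Figure D3:**
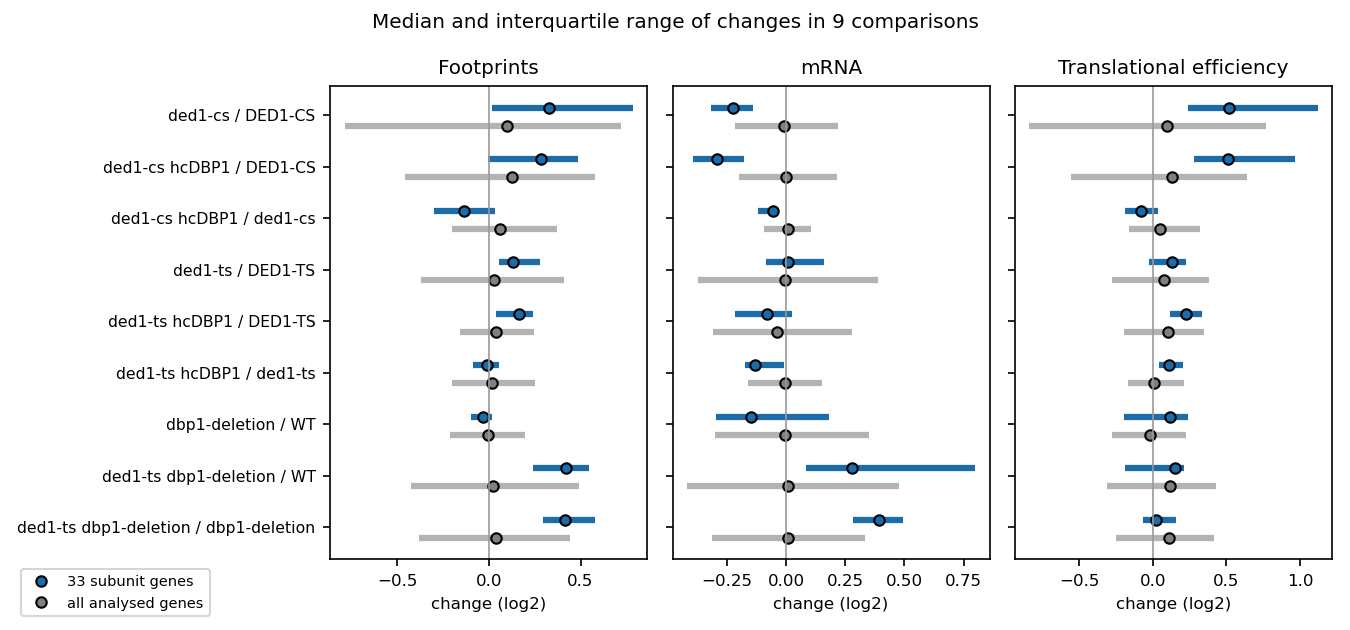
Median (point) and interquartile range (bar) of the log2 change of the 33 subunit genes (blue, upper) and of all analysed genes (grey, lower) in footprints, mRNA and translational efficiency, for the 9 comparisons. Bars show the spread over genes, not over replicates. The subunit medians stand right of those of all genes in TE in both 15 °C mutants over DED1-CS. They do so by less in ded1-ts hcDBP1 over DED1-TS and in dbp1-deletion over WT. In footprints and mRNA they stand right in ded1-ts dbp1-deletion cells.

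In dbp1-deletion cells at 37 °C footprints of the subunit genes lay close to WT. DED1 differed there as well, by -2.63 in mRNA and -1.46 in footprints on the log2 scale, so the DBP1 deletion and the lower DED1 level cannot be told apart. The subunit footprint change over WT had a median of -0.03 and an SD over genes of 0.14, between -0.52 (SEM1) and 0.16 (PRE4), where all genes had an SD of 0.38. The mRNA changes were wider, between -0.98 (SEM1) and 0.71 (PRE1), with a median of -0.15 and an SD of 0.35. TE changes had a median of 0.12, against -0.01 over all genes. They ran between -0.72 (PRE1) and 0.36 (PRE2) in the core, and between -0.38 (RPN1) and 0.46 (SEM1) in the regulatory particle. None of the 33 genes passed 2-fold in TE (2.26% of all genes), footprints (2.06%) or mRNA (5.64%).

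In cells lacking DBP1 and carrying ded1-ts, footprints and mRNA of most subunit genes were both higher than in WT, and TE was near that of other genes. Equal column totals were not set in this experiment, whose WT level columns were not used. In ded1-ts over DED1-TS they moved the footprint and mRNA medians up, so how the experiments differ depends on scaling. In ded1-ts dbp1-deletion over WT the median change was 0.42 in footprints, 0.28 in mRNA and 0.15 in TE, against 0.02, 0.01 and 0.11 over all genes. Footprints were above 0 for 31 of 33 genes and mRNA for 28. RPN5 alone passed 2-fold in mRNA, at 1.16 (15% of all genes), and none did in footprints (18.1%) or TE (12.8%). TE ran between -0.63 (PUP1) and 0.55 (PRE3) in the core, and between -0.73 (RPN8) and 0.41 (RPN9) in the regulatory particle.

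Taken over dbp1-deletion cells, so that the WT shared by both tables cancels, the ded1-ts dbp1-deletion cells had a footprint change with a median of 0.41 and above 0 for 32 of 33 genes. The mRNA median was 0.39, also above 0 for 32 of 33, against 0.04 in footprints and 0.01 in mRNA over all genes. RPN10 was the exception in both, at -0.09 in footprints and -0.10 in mRNA. The WT of both tables was assumed to be the same, and that was not checked. RPN8 and RPN5, which lie in the lid with RPN11, passed 2-fold in mRNA at 1.27 and 1.13 (7.28% of all genes). The footprint change of RPN8 was 0.27 and its TE change -1.0, the only one of the 33 past 2-fold (10.5% of all genes). No subunit gene was past 2-fold in footprints (15.6%), where RPN2 was highest at 0.87. Otherwise TE lay between -0.49 (PUP3) and 0.44 (SCL1) in the core, and RPN2 was the highest of the regulatory particle at 0.37.

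That comparison and ded1-ts over DED1-TS both concern ded1-ts, in cells without and with DBP1, and share no library. They differ in DED1 as well, whose log2 mRNA change was 1.67 in ded1-ts dbp1-deletion over dbp1-deletion and -1.17 in ded1-ts over DED1-TS. The mRNA change was higher in the cells without DBP1 for 32 of 33 subunit genes, by a median of 0.37, and for 50.4% of all 5002 genes analysed in both. The footprint change was higher for 30 of 33 subunit genes, by a median of 0.28, and for 53.7% of all genes. Only ded1-ts over DED1-TS was rescaled to equal column totals. These medians were then 0.17 in mRNA (30 of 33 genes, and 27.5% of all genes) and 0.15 in footprints (29 of 33, and 35.3%). The other comparison was left as deposited, and rescaling it as well could move these medians again, so their size is not settled. Gene by gene, the changes of the 2 comparisons had an r of 0.76 in footprints, 0.74 in mRNA and 0.36 in TE, as descriptions over 33 genes. The difference between the comparisons was not tested. Experiment, DBP1 status and DED1 level cannot be told apart here.

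In footprint level per 100 codons, the 20S core stood above the regulatory particle in wild-type cells. Core genes are also shorter, with a median length of 764.5 bp against 1290 bp in the regulatory particle. Dividing by codons need not remove every effect of length, and the part of length in this difference was not tested. The gene length gave whole codons for 32 of the 33 genes, all but PRE3. Tables were scaled separately, so levels are compared within a strain. The core median was 2409 and that of the regulatory particle 1458 in DED1-TS cells, and 1 of the 19 regulatory particle genes (RPN10) exceeded the lowest core gene. In DED1-CS cells these medians were 1585 and 1144. The ratio of core to regulatory particle was 1.70 in ded1-ts dbp1-deletion cells and 1.63 in dbp1-deletion cells, and 1.62, 1.69 and 1.65 in ded1-ts hcDBP1, ded1-ts and DED1-TS cells. At 15 °C it was 1.23 in ded1-cs hcDBP1 and 1.00 in ded1-cs cells, against 1.39 in DED1-CS cells. Of the 19 regulatory particle genes, 17 in ded1-cs hcDBP1 and 18 in ded1-cs cells exceeded the lowest core gene, SCL1 in both. In DED1-CS cells 3 did, and PRE1 was lowest. The core also stood above the regulatory particle in mRNA level per 100 codons, with a ratio of 1.55 in DED1-TS and 1.24 in DED1-CS cells. At 15 °C the mRNA ratio was higher in the mutants, at 1.505 in ded1-cs hcDBP1 and 1.497 in ded1-cs cells, while the footprint ratio was lower. The part of mRNA in the footprint difference was not tested.

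The spread among subunits was also wider in the 15 °C mutants than in wild type. The SD of the log2 footprint level per codon over 32 genes was 0.41 in ded1-cs hcDBP1 and 0.56 in ded1-cs cells, against 0.31 in DED1-CS cells. Within the core it was 0.35 in ded1-cs hcDBP1 and 0.51 in ded1-cs cells, against 0.17 in DED1-CS cells, and within the regulatory particle 0.40 and 0.58, against 0.21. The highest gene exceeded the lowest 2.98-fold in ded1-cs hcDBP1 cells (PUP2 over RPN8) and 4.70-fold in ded1-cs cells (PRE8 over RPN8), against 2.41-fold in DED1-CS cells (PUP3 over RPN8). Over all genes the SD was 2.33 in ded1-cs hcDBP1 and 2.48 in ded1-cs cells, against 2.19 in DED1-CS cells. At 37 °C the 32 genes had an SD of 0.42 in ded1-ts hcDBP1, 0.43 in ded1-ts and 0.42 in DED1-TS cells, and of 0.43 in ded1-ts dbp1-deletion and 0.38 in dbp1-deletion cells. The mRNA level per codon had an SD of 0.42 in ded1-cs hcDBP1 and 0.39 in ded1-cs cells, against 0.33 in DED1-CS cells.

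**Figure D4:**
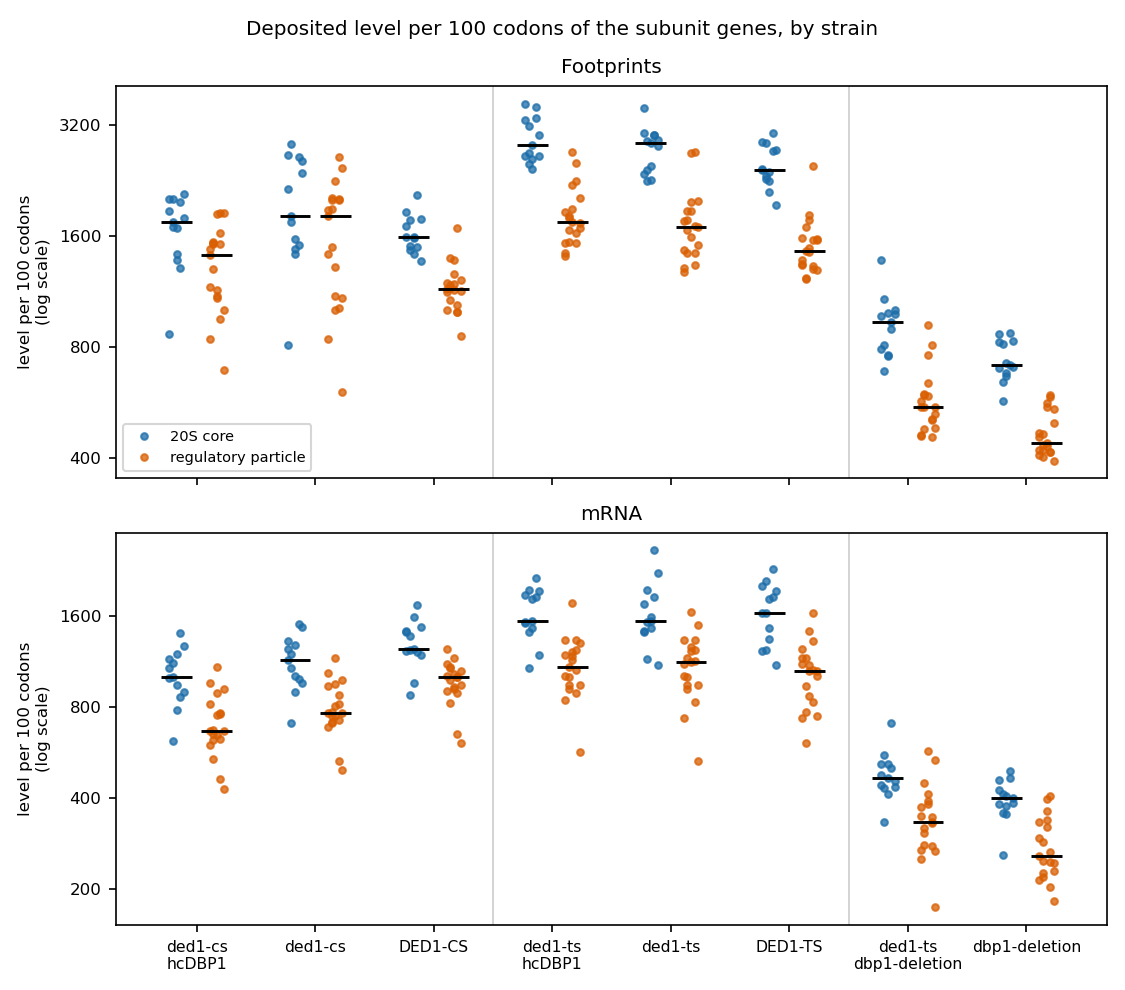
Deposited footprint level (top) and mRNA level (bottom) per 100 codons, on log axes, of the 13 core genes with whole codons (blue) and the 19 regulatory particle genes (orange) in the 8 strains; points are genes, black lines medians over genes. Vertical lines part the 3 experiments, whose tables were scaled separately; the core and regulatory particle footprints meet in ded1-cs cells, at medians of 1814 and 1810, and stand apart in DED1-CS cells.

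Summed over the 33 genes, the share of all footprint levels was 0.506% in ded1-cs hcDBP1 cells and 0.516% in ded1-cs cells, against 0.577% in DED1-CS cells. At 37 °C it was 0.525% in ded1-ts hcDBP1 and 0.604% in ded1-ts cells, against 0.486% in DED1-TS cells. It was 0.690% in ded1-ts dbp1-deletion and 0.534% in dbp1-deletion cells. The shares of mRNA levels were 0.635% in ded1-cs hcDBP1 and 0.687% in ded1-cs cells, against 0.768% in DED1-CS cells. They were 0.676% in ded1-ts hcDBP1 and 0.754% in ded1-ts cells, against 0.624% in DED1-TS cells, and 0.804% in ded1-ts dbp1-deletion against 0.556% in dbp1-deletion cells. These shares, which no scaling of a column can move, were lower in both 15 °C mutants and higher in ded1-ts cells than in wild type. They weight genes by level, so that a few abundant mRNAs elsewhere in the genome can move them.

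RPN4 (YDL020C), the activator of subunit gene transcription, was set beside its targets. In ded1-cs over DED1-CS cells its mRNA change was 0.09 and its footprint change -1.51, a TE change of -1.60. Its footprint level was 776 in ded1-cs cells and 2210 in DED1-CS cells. In ded1-cs hcDBP1 over DED1-CS cells the mRNA change was 0.04 and the TE change -1.42. At 37 °C its mRNA change was 0.72 in ded1-ts hcDBP1 and 1.30 in ded1-ts cells over DED1-TS, with footprint changes of 0.41 and 1.07. It was 2.15 in ded1-ts dbp1-deletion and 0.78 in dbp1-deletion cells over WT, with footprint changes of 1.76 and 0.79. The median mRNA change of the 33 genes stood beside these at -0.23 in ded1-cs, 0.01 in ded1-ts, 0.28 in ded1-ts dbp1-deletion and -0.15 in dbp1-deletion cells. The mRNA rise at 37 °C was not particular to RPN4. All 5 regulators followed below, RPN4 among them, had mRNA changes above 0 there over wild type. Their median was 0.72 in ded1-ts hcDBP1, 1.07 in ded1-ts, 1.79 in ded1-ts dbp1-deletion and 0.73 in dbp1-deletion cells. The part of RPN4 in the subunit mRNA levels was not tested.

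**Figure D5:**
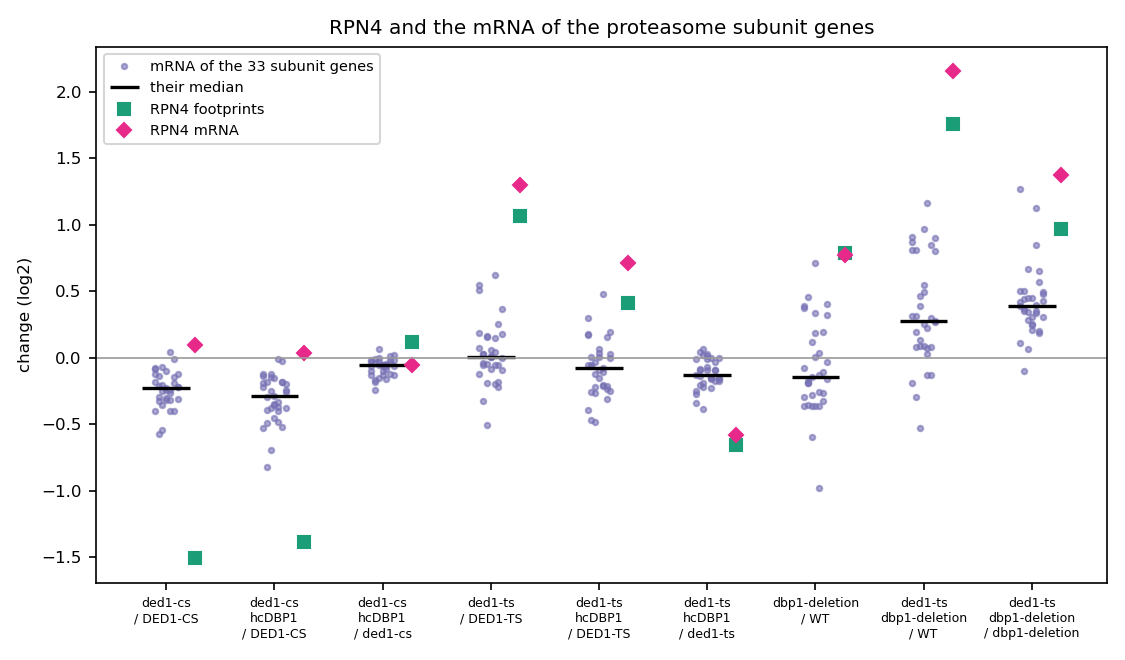
Log2 mRNA change of the 33 subunit genes (small points, black line at their median) and, beside them, the log2 footprint change (square) and mRNA change (diamond) of RPN4 in the 9 comparisons; all are single values without replicate error. RPN4 footprints stand at -1.51 and -1.39 in the ded1-cs and ded1-cs hcDBP1 comparisons over DED1-CS and at 1.76 in ded1-ts dbp1-deletion over WT.

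The pathway around the proteasome was followed as 30 genes in 4 lists. Of 10 assembly chaperones, 5 were past 2-fold higher in TE in ded1-cs over DED1-CS cells (16.4% of all genes) and none lower (21.9%). These were PBA1 at 1.52, NAS2 at 1.45, UMP1 at 1.30, TMA17 at 1.22 and RPN14 at 1.16, with a median over the list of 0.91 as deposited. None of the 10 was past 2-fold higher with equal column totals, in ded1-cs hcDBP1 or in ded1-cs cells. UMP1 (YBR173C), which helps immature cores mature and is then degraded by them, had a footprint level of 4096 in ded1-cs and 2257 in DED1-CS cells. Its TE change was 1.00 in ded1-cs hcDBP1 over DED1-CS, where PBA1 at 1.08, NAS2 at 1.24 and RPN14 at 1.04 were also past 2-fold (9.22% of all genes). At 37 °C no chaperone passed 2-fold in TE, where between 1.59% and 12.8% of all genes did, depending on the comparison. With 10 genes that count is near those shares. UMP1 had 0.42 in ded1-ts hcDBP1 and 0.28 in ded1-ts cells over DED1-TS. It had 0.36 in ded1-ts dbp1-deletion and -0.15 in dbp1-deletion cells over WT.

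All 5 regulators lay below 0 in TE in ded1-cs over DED1-CS cells, with a median of -1.27, against 0.10 over all genes. Past 2-fold lower were 3 of them (21.9% of all genes), and all 5 with equal column totals. These 3 were RPN4, YAP1 at -2.05 and PDR1 at -1.27, the last 2 being transcription activators of stress and drug resistance genes. YAP1 was also past 2-fold lower in ded1-cs hcDBP1 over DED1-CS, at -1.12 (13.1% of all genes). In ded1-ts dbp1-deletion cells YAP1 had -1.18 over WT (12.8% of all genes past 2-fold either way) and -1.05 over dbp1-deletion (10.5%). Among 9 genes of ubiquitin and its shuttles, the receptors DDI1 at 1.71 and DSK2 at 1.37 were past 2-fold higher in ded1-cs cells (16.4% of all genes), and UFD2, a ubiquitin chain elongation factor, was past 2-fold lower at -2.54 (21.9%). DSK2 was no longer past 2-fold higher with equal column totals, and RAD23 joined UFD2 past 2-fold lower. In ded1-cs hcDBP1 cells DDI1 had 1.41 (9.22% of all genes past 2-fold higher), a call lost with equal column totals, and UFD2 -2.19 (13.1% lower). UFD2 was also past 2-fold lower at 37 °C over DED1-TS. It had -1.08 in ded1-ts hcDBP1 cells (3.86% of all genes past 2-fold either way) and -1.15 in ded1-ts cells (9.25%). RAD23, another shuttle, was also past 2-fold lower in ded1-ts dbp1-deletion cells, at -1.56 over WT (12.8% either way) and -1.38 over dbp1-deletion (10.5%). Of 6 associated proteins, BLM10, an activator that caps the core, was past 2-fold lower in ded1-ts over DED1-TS, at -1.05 (9.25% either way). It was also past it in ded1-ts dbp1-deletion over WT, at -1.43 (12.8%). With equal column totals BLM10 was past 2-fold lower in ded1-cs hcDBP1 and ded1-cs cells over DED1-CS too.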

How the data were processed

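Footprint and mRNA libraries of 8 yeast strains were read as the 6 deposited tables. Their values are log2 levels and log2 changes that the authors computed, 1 per strain and assay, from libraries that the labels give as 2 replicates; base 2 was inferred from the values. Level columns carried 1 to 3 decimals (10 of 20 had 1), so a level is exact only to that step. Per the submitters' processing notes the tools were CASAVA 1.8, Bowtie2 2.6.0, TopHat2 2.1.0 and DESeq2 with genome sacCer2; how the 2 libraries were combined is not given in the sources used here. The differences of 2 changes, medians, counts and levels per 100 codons were computed with Python 3.11.15, pandas 2.3.3 and numpy 2.4.6, and figures with matplotlib 3.10.9. Genes needed a geometric mean level of at least 50 in both assays, taken over the strains of a comparison (for the dbp1-deletion experiment over mutant columns only); the geometric mean was chosen over the arithmetic one after the data were seen. With no counts per library the planned count test was not run, and changes were called by size alone, at 2-fold. The counting of medians and 2-fold calls was tested on simulated data. The 4 WT level columns of the dbp1-deletion experiment match no sample and were not used. Gene names and lengths came from the RefSeq R64 gene table (5444 of 5446 IDs matched, all 33 members). Its coordinates were used only to look for overlapping genes. No member overlaps another gene there. All 33 members are named; others are RPN4, UMP1 and pathway genes past 2-fold in translational efficiency. Members, lists and this rule were chosen with earlier results of these data known. Alternatives were the level minimum, 1.5-fold calls, centring on the median, equal column totals and differences of level columns. Promoter motifs were not analysed here.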

Additional observations from a re-analysis of the deposited data

How the results depend on the processing

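No paired analysis was possible because each strain and assay has a single deposited value and none per library. For the same reason no replicate could be left out. Of 321 recomputed values, 274 stayed within 0.1 log2 units (medians) or 1.5 times (counts), a tolerance set when the alternatives were computed, 46 moved and 1 reversed. The rescaled counts of the 4 pathway lists, and of the subunit genes in ded1-ts dbp1-deletion over dbp1-deletion beside ded1-ts over DED1-TS, were chosen after seeing the data. The distance between the subunit median and the median of all genes stayed within that tolerance in all 24 alternatives each for footprints, mRNA and translational efficiency. Equal column totals were not set for the dbp1-deletion experiment. With them, subunit genes past 2-fold higher in translational efficiency numbered 0 in both ded1-cs and ded1-cs hcDBP1 cells over DED1-CS, where 11 and 5 were reported. Genes past 2-fold lower numbered 2 and 1. Centring on the median of all genes left 9 and 3 past 2-fold higher, and 1 past 2-fold lower in ded1-cs cells. A 1.5-fold limit gave 15 higher and 1 lower in ded1-cs hcDBP1 cells, 1 lower in ded1-cs cells, 2 higher in each of ded1-ts and ded1-ts hcDBP1 cells over DED1-TS, 1 lower in dbp1-deletion and 2 lower in ded1-ts dbp1-deletion cells over WT. The core median minus the regulatory particle median in translational efficiency was -0.29 in ded1-cs over DED1-CS cells and -0.05 in ded1-cs hcDBP1 over ded1-cs cells; taken from the rounded level columns it was -0.39 and, with the other sign, 0.04, and the cause was not tested. Not divided by length, the SD of the log2 footprint level over the 32 subunit genes was between 0.54 and 0.68 in the 8 strains; without SEM1 the SD per codon stayed within the tolerance in all 8. Depth per library is unknown.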
